A study of Mus musculus with 6 samples.

Results

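The 54 genes described here encode the machinery that folds, modifies, inspects and exports proteins in the endoplasmic reticulum (ER) of mouse liver. They were chosen by gene symbol among the 55401 genes of a count table. The table comes from fresh liver of C57BL/6 mice, sequenced as poly(A) RNA with 1 library per sample, in a study of metabolic-associated fatty liver disease. The OP group holds 3 libraries from mice given okra polysaccharide, carbohydrate extracted from the vegetable okra, and the HFCF group holds 3 libraries from mice fed a diet rich in fat, cholesterol and fructose. The labels do not name the diet of the OP mice. They also leave unsaid whether each sample is a different animal, and the p-values then describe variation among libraries that could be technical in part. A group on standard chow is not analysed here.

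Secreted and membrane proteins enter the ER through the Sec61 translocon, receive a glycan from the oligosaccharyltransferase, fold with the help of chaperones and disulfide isomerases, and leave in COPII-coated vesicles. Proteins that fail to fold are drawn back into the cytosol and destroyed, a route called ER-associated degradation. When unfolded proteins accumulate, the sensors IRE1 (gene Ern1), PERK (gene Eif2ak3) and ATF6 (gene Atf6) start the unfolded protein response. IRE1 then splices the Xbp1 mRNA, and the spliced product and cleaved ATF6 switch on chaperone and degradation genes. The hepatocyte is a heavily secretory cell that exports most plasma proteins and very low density lipoprotein by this route.

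Totals were 50635853 to 61918541 counts in OP libraries and 46459980 to 58822973 counts in HFCF libraries. Levels are given as CPM, counts scaled to a common library size after TMM normalisation. The floor for a gene with 0 counts, set at 3 counts, was 0.0472 to 0.0624 CPM in OP libraries and 0.0495 to 0.0624 CPM in HFCF libraries and reflects counting error alone. Summed CPM of 8 hepatocyte markers was 54500 to 83200 in OP libraries and 36200 to 58900 in HFCF libraries. The share of counts in mitochondrially encoded mRNA was 7.48%, 6.08% and 14.4% in OP libraries and 22.0%, 18.8% and 14.1% in HFCF libraries. The third library of each group thus had nearly the same mitochondrial share, and the others lay far apart.

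Among the 54 genes, Hspa5, Creld2, Syvn1 and Sar1b rose in OP livers and Derl3 fell. The other 49 did not pass the test. All 54 were kept by the filter on low counts and tested in edgeR by quasi-likelihood, with p-values adjusted by Benjamini-Hochberg over 17394 genes and a threshold of 0.05. The 5 genes that passed are 9.26% of the 54, against 6.73% of all tested genes called in either direction. The 4 genes called higher are 7.41% of the 54, against 3.26% of all tested genes called higher, and 3.47% of all tested genes were called lower. DESeq2 called 14 of the 54 genes higher, against 8.18% of the genes it tested, limma-voom called 6, against 3.71%, and edgeR at an adjusted p under 0.1 called 14, against 7.6%. In bulk liver, fewer cells of a type and less RNA per cell cannot be told apart.

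Most of the 54 genes had a value above 0 in OP relative to HFCF livers that did not pass the test. The log2 fold change, OP over HFCF, was above 0 for 44 of them, or 81.5%, against 51.4% of all tested genes. Its median was 0.32 over the 54 genes and 0.02 over all tested genes. Each OP library stood above each HFCF library for 21 genes, or 38.9%, against 15.8% of all tested genes. The reverse held for 4 genes, Eif2ak3, Derl3, Ssr4 and Sec24d, against 15.4% of all tested genes with each OP library below each HFCF library.

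**Figure D1:**
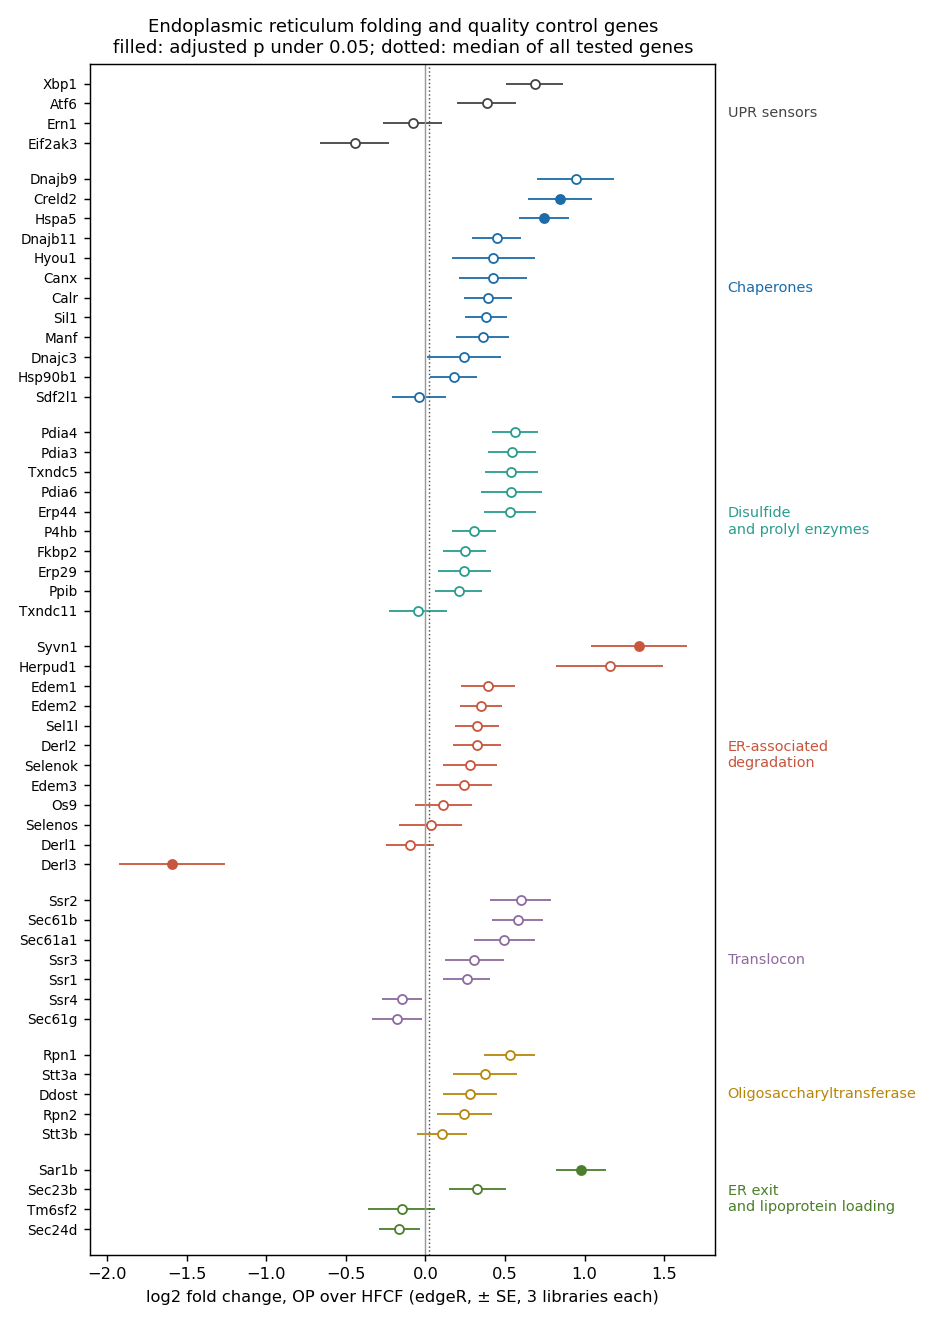
Log2 fold change of each of the 54 genes, OP over HFCF, with its standard error, grouped by role (sensors are drawn with Xbp1). Filled points are the 5 genes with an adjusted p under 0.05, and the dotted line is the median of all tested genes, 0.02. Points lie mainly to the right of 0, with Syvn1 at 1.34 and Derl3 at -1.59 at the ends.

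Several of these genes carry the DNA element through which cleaved ATF6 and XBP1 act in mammalian cells, the ER stress response element, written as CCAAT, then 9 bases of any kind, then CCACG. RefSeq promoter windows (GRCm38.p6), from 250 bases before to 50 bases after each annotated start, were searched on both strands. A window was found for 45 of the 54 genes, and 9 of these 45 (20%) held the element, against 37 of 27025 genes with a window (0.137%). The element was first described in ER chaperone promoters, so its presence here is a description of the genes and not a result of the mice. Shown with the element in capitals and up to 30 bases on each side are the 4 genes that carry it and passed the test, because they differ in direction. Each is written in the direction in which its gene is transcribed, here the plus strand, in which the element of Hspa5 and Syvn1 reads forward and that of Creld2 and Derl3 reads as its reverse complement.
Hspa5, chr2:34771995-34772073: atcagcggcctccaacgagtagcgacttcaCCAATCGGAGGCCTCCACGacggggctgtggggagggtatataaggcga
Creld2, chr15:88819490-88819568: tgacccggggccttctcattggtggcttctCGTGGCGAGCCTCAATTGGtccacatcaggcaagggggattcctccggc
Syvn1, chr19:6046502-6046575: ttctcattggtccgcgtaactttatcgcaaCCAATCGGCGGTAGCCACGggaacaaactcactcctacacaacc
Derl3, chr10:75893212-75893290: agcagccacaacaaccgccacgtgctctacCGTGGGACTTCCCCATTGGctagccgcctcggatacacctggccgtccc

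The element began 65 bases before the annotated start in Hspa5, 126 in Creld2, 44 in Syvn1 and 156 in Derl3. The other 5 genes with the element were Calr, Canx, Dnajc3, Hsp90b1 and Pdia6, none of which passed the test. Their elements, in the same notation, show how freely the 9 spacer bases vary, while CCAAT and CCACG (or their complements) are fixed by the search. Hsp90b1 carries a pair of them.
Calr: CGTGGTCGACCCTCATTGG
Canx: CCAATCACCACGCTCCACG
Dnajc3: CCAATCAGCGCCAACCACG
Hsp90b1, farther from the start: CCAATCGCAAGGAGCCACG
Hsp90b1, nearer to the start: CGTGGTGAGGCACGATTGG
Pdia6: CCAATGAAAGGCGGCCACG

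Of the 9 genes with the element, 8 had a log2 fold change above 0, with Derl3 the exception, and the median was 0.42. Over all 54 genes, 44 were above 0 and the median was 0.32. Of the 9 genes, 3 were called higher and 1 was called lower, against 3.26% and 3.47% of all tested genes. Outside the 54 genes, 28 carried the element, 13 of these were tested, and 0 were called. Their median was 0.04, with 7 of 13 above 0. Of the same 13, 3 had an unadjusted p under 0.05 by edgeR, 2 were called by DESeq2 and 0 by limma-voom. The shares of all tested genes, in either direction, were 25.2%, 16.4% and 7.58%. Sar1b, which also rose, had a window with no match, so the genes called here are not all marked by these letters.

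**Figure D2:**
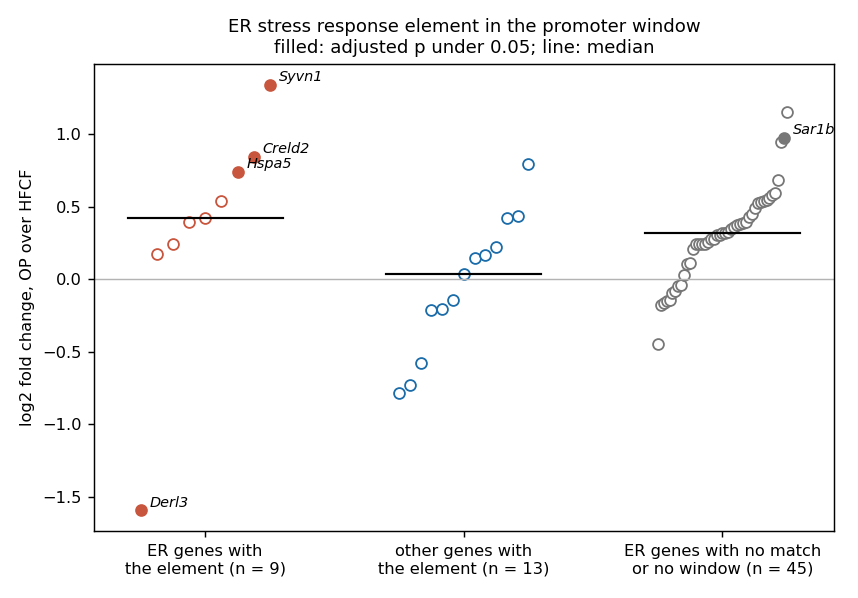
Log2 fold change, OP over HFCF, of genes with the ER stress response element in the RefSeq promoter window, inside (n = 9) and outside (n = 13) the 54 ER genes, and of the other 45 ER genes. Filled points have an adjusted p under 0.05 and lines are medians. Syvn1, Creld2 and Hspa5 lie at the top of the leftmost group and Derl3 far below it, at -1.59.

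Other elements of the response were rarer among the 54 genes. ER stress response element II, ATTGG, then any base, then CCACG, was in Herpud1 and Dnajb11, against 0.0444% of all genes with a window. TGACGTGG, an unfolded protein response element core, was in Sec24d, Txndc11 and Txndc5, against 0.714%, and TGACGTGA was in Hspa5, against 0.507%. TGATGCAA, the element bound by the PERK-dependent factor ATF4, was in Herpud1, against 1.03%. TGACGTGG contains the reverse complement of CCACG, but no matches named here overlap. Herpud1 is shown because a single window holds elements of separate branches, the ATF4 element on the opposite strand.
Herpud1, ER stress response element II, chr8:94386347-94386417: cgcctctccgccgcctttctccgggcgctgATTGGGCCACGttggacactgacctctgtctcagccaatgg
Herpud1, ATF4 element, chr8:94386287-94386354: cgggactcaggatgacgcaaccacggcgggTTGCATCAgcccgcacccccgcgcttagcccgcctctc

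Neither the sensor genes nor Xbp1 passed the test, and their values differed in sign. Of these 4, only Xbp1 had an unadjusted p under 0.05 by edgeR, against 25.2% of all tested genes. Ern1, the gene of the kinase and endoribonuclease IRE1, had 24.8, 17.1 and 24.5 CPM in OP livers, against 20.2, 26.2 and 23.7 CPM in HFCF livers. The groups overlapped, and the log2 fold change was -0.08 ± 0.19 (SE), with an adjusted p of 0.830 by edgeR. Atf6, the gene of the membrane-bound factor that is cut free in the Golgi, had 34.7, 34.1 and 25.7 CPM in OP livers, against 20.8, 22.4 and 29.1 CPM in HFCF livers. Only the third library of each group broke the order, and the log2 fold change was 0.39 ± 0.19 (edgeR adjusted p = 0.235).

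Eif2ak3, the gene of PERK, which slows translation by phosphorylating eIF2 alpha, had 6.73, 6.68 and 4.35 CPM in OP livers, against 8.34, 7.67 and 8.21 CPM in HFCF livers. Each OP library lay below each HFCF library, but the log2 fold change of -0.45 ± 0.21 did not pass (edgeR adjusted p = 0.238). Xbp1, the factor downstream of IRE1, had 153, 138 and 203 CPM in OP livers, against 91.7, 101 and 115 CPM in HFCF livers. Its groups did not overlap and OP replicate 3 was the highest, yet at 0.69 ± 0.18 it lay just outside the threshold (edgeR adjusted p = 0.0574). Xbp1 was the only one of these 4 called by DESeq2 (adjusted p = 0.00709), and limma-voom also called it. A count per gene does not separate spliced from unspliced Xbp1 mRNA, so IRE1 activity was not measured.

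Among 12 chaperones, Hspa5 and Creld2 rose, 10 did not pass, and 11 had a log2 fold change above 0, with a median of 0.41. Hspa5 encodes BiP, the Hsp70 chaperone of the ER lumen that also holds the sensors inactive. It had 568, 426 and 528 CPM in OP livers, against 307, 283 and 319 CPM in HFCF livers. The lowest OP library was well above the highest HFCF library. Hspa5 averaged 507 ± 73.5 CPM in OP livers and 303 ± 18.5 CPM in HFCF livers (SD, n = 3 each), a log2 fold change of 0.74 ± 0.16 (edgeR adjusted p = 0.0307).

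Creld2 encodes an ER-resident protein with disulfide isomerase activity that is induced by ER stress. It had 46.4, 32.1 and 27.6 CPM in OP livers, against 21.6, 19.1 and 18.5 CPM in HFCF livers. OP replicate 1 stood highest and the groups did not overlap. The means were 35.4 ± 9.81 CPM in OP livers and 19.7 ± 1.63 CPM in HFCF livers (SD, n = 3 each), a log2 fold change of 0.84 ± 0.20 (edgeR adjusted p = 0.0461). Creld2 lay just inside the threshold, and it lost its call with upper quartile scaling and with no scaling factors.

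The other 10 chaperones ranged from -0.04 to 0.95 in log2 fold change. Dnajb9, or ERdj4, a J-domain cochaperone that directs BiP to IRE1, had the largest value among them, 0.95 ± 0.24, and missed the threshold (edgeR adjusted p = 0.0554). Chosen after its values were seen, Dnajb9 had 53.1, 32.6 and 29.2 CPM in OP livers, against 16.6, 19.9 and 23.1 CPM in HFCF livers, with no overlap. Hsp90b1, the ER Hsp90 known as GRP94 and the partner of BiP, gave only 0.18 ± 0.15. The lectin chaperones Calr and Canx, which hold glycoproteins, gave 0.39 ± 0.15 and 0.42 ± 0.21. Hyou1, a nucleotide exchange factor of BiP, gave 0.43 ± 0.26, and Sil1, another, gave 0.38 ± 0.13. Sdf2l1, which is part of a BiP complex, gave -0.04 ± 0.17. The J-domain cochaperones Dnajc3 and Dnajb11 gave 0.24 and 0.45, and Manf, a BiP-binding protein that can be secreted, gave 0.36.

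BiP and GRP94 are usually induced together by ER stress. The share of Hspa5 within the pair, chosen after their values were seen, does not depend on how libraries are scaled. Hspa5 made up 49.3%, 42.4% and 52.0% of the summed Hspa5 and Hsp90b1 level in OP livers, against 38.4%, 39.2% and 37.7% in HFCF livers. All OP shares were higher, with means of 47.9% ± 4.94 in OP livers and 38.4% ± 0.723 in HFCF livers (SD, n = 3 each). The exact two-sided permutation test gave p = 0.1, the smallest that 3 against 3 libraries allow.

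No disulfide or prolyl enzyme passed, although 9 of 10 had a log2 fold change above 0 and the median was 0.42. At an unadjusted p under 0.05 edgeR gave 5, DESeq2 called 4 and limma-voom 1, all higher. The shares over all tested genes, in either direction, were 25.2%, 16.4% and 7.58%. For 6 of the 10, Pdia3, Pdia4, P4hb, Erp44, Txndc5 and Fkbp2, each OP library stood above each HFCF library. Pdia4, a disulfide isomerase, had the smallest p, with 139, 126 and 106 CPM in OP livers, against 82.9, 83.9 and 84.4 CPM in HFCF livers. The HFCF libraries were nearly identical and all OP libraries were higher. The log2 fold change was 0.56 ± 0.14 (edgeR adjusted p = 0.0548), just outside the threshold.

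The isomerases Pdia3, Pdia6 and Txndc5 gave close values of 0.55 ± 0.15, 0.54 ± 0.19 and 0.54 ± 0.17, and Erp44, which retains client proteins in the early secretory pathway, gave 0.53 ± 0.16. P4hb, the founding protein disulfide isomerase, gave 0.31 ± 0.14. The prolyl isomerases Ppib and Fkbp2, which turn proline bonds, gave 0.21 ± 0.15 and 0.25 ± 0.14. The thioredoxin-fold proteins Erp29 and Txndc11 gave 0.24 ± 0.17 and -0.05 ± 0.18. In GENCODE M21, 24.4% of Erp29 exon bases and 24.96% of Ppib exon bases overlap exons of an opposite-strand gene, and the sources do not state whether reads were counted by strand.

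ER-associated degradation held the extremes in both directions. Of 12 genes, Syvn1 rose, Derl3 fell and 10 did not pass, with 10 above 0 and a median of 0.30. Syvn1 encodes the ubiquitin ligase HRD1, the core of the main degradation complex. It had 175, 68.1 and 114 CPM in OP livers, against 51.2, 45.6 and 44.4 CPM in HFCF livers. The OP libraries varied widely among themselves, but the lowest stood above all HFCF libraries. The means were 119 ± 53.6 CPM in OP livers and 47.1 ± 3.66 CPM in HFCF livers (SD, n = 3 each), a log2 fold change of 1.34 ± 0.30 (edgeR adjusted p = 0.0376). Its exons share 91 bases, 1.87% of their length in GENCODE M21, with the opposite-strand gene Mrpl49, which was also called higher, at 0.78 (edgeR adjusted p = 0.031).

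Sel1l encodes the adaptor that brings substrates to HRD1. It gave 0.32 ± 0.14 with an edgeR adjusted p of 0.191. Syvn1 made up 63.6%, 44.7% and 58.7% of the summed Syvn1 and Sel1l level in OP livers, against 42.6%, 38.5% and 38.8% in HFCF livers, a share chosen after the values were seen. The OP shares were all higher, at 55.7% ± 9.85 in OP livers and 40.0% ± 2.30 in HFCF livers (SD, n = 3 each), with p = 0.1 by the exact two-sided permutation test. That is the smallest possible, so this test could not pass the threshold.

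Derl3, a derlin of the channel through which misfolded proteins leave the ER, was the only gene of the 54 to fall. It was also scarce, with 3.30, 2.11 and 2.00 CPM in OP livers, against 8.34, 9.46 and 4.57 CPM in HFCF livers. HFCF replicate 3 was the lowest of its group and still stood above all OP libraries. The means were 2.47 ± 0.722 CPM in OP livers and 7.46 ± 2.56 CPM in HFCF livers (SD, n = 3 each), a log2 fold change of -1.59 ± 0.33 (edgeR adjusted p = 0.0307). Its relatives Derl1 and Derl2 gave -0.10 ± 0.15 and 0.32 ± 0.15 and did not pass. Derl3 made up 2.13%, 1.26% and 1.40% of the summed derlin level in OP livers, against 5.77%, 6.47% and 2.86% in HFCF livers, chosen after the values were seen. The means were 1.6% ± 0.465 in OP livers and 5.04% ± 1.92 in HFCF livers (SD, n = 3 each; exact two-sided permutation p = 0.1, the smallest possible).

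Herpud1, which helps assemble HRD1 complexes, had the second-highest log2 fold change of the 54 genes but did not pass. Chosen after its values were seen, it had 555, 305 and 253 CPM in OP livers, against 122, 147 and 231 CPM in HFCF livers. The groups did not overlap, yet OP replicate 3 and HFCF replicate 3 were close, and the log2 fold change was 1.16 ± 0.33 (edgeR adjusted p = 0.0747). The mannosidase-like proteins Edem1, Edem2 and Edem3, which mark glycoproteins for disposal, gave 0.39, 0.35 and 0.24. The lectin Os9 gave 0.11, and the selenoproteins Selenos and Selenok gave 0.03 and 0.28.

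No translocon gene passed, and the subunits of one complex differed in sign. Of 7 genes, 5 had a log2 fold change above 0, with a median of 0.31. At an unadjusted p under 0.05 edgeR gave 3, DESeq2 called 2 and limma-voom 0. Over all tested genes, in either direction, the shares were 25.2%, 16.4% and 7.58%. Sec61b, the beta subunit of the Sec61 channel, had the smallest p, with 30.7, 37.2 and 44.6 CPM in OP livers, against 25.01, 25.65 and 24.7 CPM in HFCF livers. All OP libraries were higher and OP replicate 3 was the highest, unlike in most of the other genes. The log2 fold change was 0.58 ± 0.16 (edgeR adjusted p = 0.0670). The pore subunit Sec61a1 gave 0.49 ± 0.19, while the gamma subunit Sec61g gave -0.18 ± 0.16. The translocon-associated protein genes Ssr1, Ssr2 and Ssr3 gave 0.26, 0.60 and 0.31, and Ssr4 gave -0.15, with each OP library below each HFCF library.

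All 5 oligosaccharyltransferase genes had a log2 fold change above 0, with a median of 0.28, and none passed. DESeq2 called 1, Rpn1, which was also the only one with an unadjusted p under 0.05 by edgeR, and limma-voom called 0. Among all tested genes, in either direction, these shares were 16.4%, 25.2% and 7.58%. Rpn1, a ribophorin subunit, had the smallest p, with 87.2, 99.6 and 71.4 CPM in OP livers, against 55.1, 59.0 and 64.9 CPM in HFCF livers. The groups did not overlap, though OP replicate 3 came near HFCF replicate 3. The log2 fold change was 0.53 ± 0.16 (edgeR adjusted p = 0.0845). The catalytic subunits Stt3a and Stt3b gave 0.37 ± 0.20 and 0.10 ± 0.16, and the accessory subunits Rpn2 and Ddost gave 0.24 ± 0.17 and 0.28 ± 0.17.

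Sar1b, at the exit from the ER, had the smallest p of the 54 genes. It encodes the small GTPase that starts the COPII coat and is needed for lipoprotein particles to leave the ER. It had 172, 169 and 145 CPM in OP livers, against 71.1, 80.0 and 95.5 CPM in HFCF livers. The groups were far apart, with the third library of each nearest to the other group. The log2 fold change was 0.98 ± 0.16, with an adjusted p of 0.0135 by edgeR. The coat subunits Sec23b and Sec24d gave 0.33 ± 0.18 and -0.16 ± 0.13, and Tm6sf2, a membrane protein involved in lipid loading of very low density lipoprotein, gave -0.15 ± 0.21. None of these 3 passed.

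**Figure D3:**
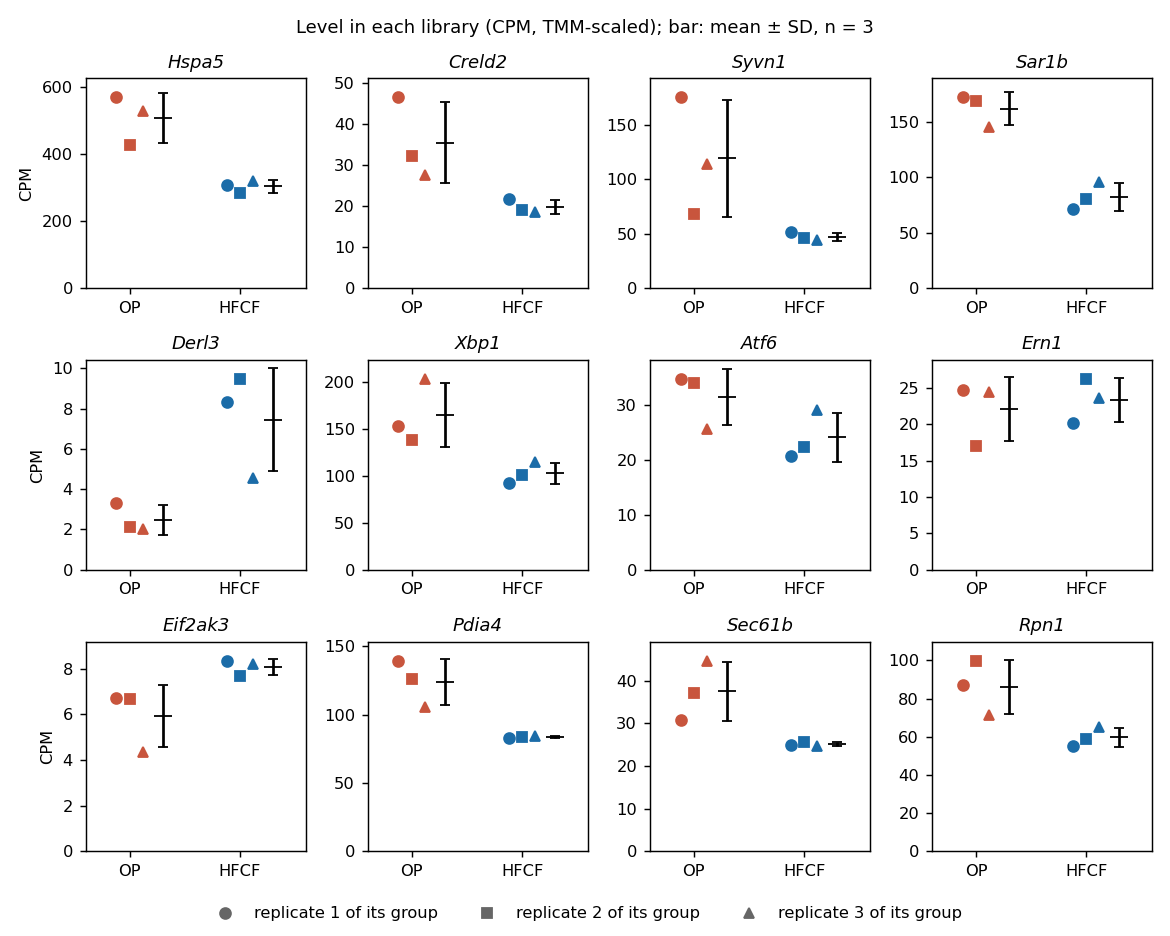
CPM of 12 of the 54 genes in each library, with 3 OP libraries left of 3 HFCF libraries and the mean ± SD beside them. Hspa5, Creld2, Syvn1 and Sar1b are higher in each OP library than in each HFCF library, Derl3 is lower in each OP library, and Ern1 overlaps.

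The calls were sensitive to which libraries were included. No call on these 5 genes held without OP replicate 1, without HFCF replicate 1 or without HFCF replicate 2, and with no low-count filter Sar1b and Derl3 kept their calls while Hspa5, Creld2 and Syvn1 did not. Over the 6 ways of leaving out a library, edgeR's adjusted p ran from 0.0342 to 0.198 for Hspa5, 0.0293 to 0.213 for Creld2, 0.0120 to 0.193 for Syvn1, 0.0179 to 0.120 for Sar1b and 0.0206 to 0.153 for Derl3. Without OP replicate 3, Syvn1 and Derl3 also lost their calls, and without OP replicate 2 or HFCF replicate 3 Creld2 did. Derl3 lost its call without OP replicate 2, and Syvn1 without HFCF replicate 3. The direction did not turn, with log2 fold changes of 0.65 to 0.86 for Hspa5, 0.60 to 0.996 for Creld2, 0.95 to 1.62 for Syvn1, 0.88 to 1.099 for Sar1b and -1.86 to -1.41 for Derl3. Leaving out OP replicate 3 raised the number of the 54 genes called higher to 8, against 3.55% of all genes tested there.

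The third library of each group lay nearest to the other group for most of the 54 genes. OP replicate 3 was the lowest OP library for 39 genes, and HFCF replicate 3 was the highest HFCF library for 39 genes. Summed over the 54 genes, the level was 6724, 6198 and 5509 CPM in OP livers, against 4434, 4283 and 5041 CPM in HFCF livers. The groups did not overlap in this sum. Relative to the HFCF mean, the median gene stood at 0.37, 0.42 and 0.16 on the log2 scale in OP livers, and at -0.04, -0.09 and 0.12 in HFCF livers. OP replicate 3 and HFCF replicate 3 thus differed little in the median gene.

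The roles differed in how far OP replicate 3 moved. For disulfide and prolyl enzymes the median log2 ratio to the HFCF mean was 0.47, 0.54 and 0.24 in OP livers, against -0.05, -0.10 and 0.17 in HFCF livers. For oligosaccharyltransferase genes it was 0.38, 0.49 and -0.10 in OP livers, against -0.05, -0.04 and 0.12 in HFCF livers. In these medians OP replicate 3 stood below the HFCF libraries for the oligosaccharyltransferase genes and above them for the disulfide enzymes. Single oligosaccharyltransferase genes differed in OP replicate 3. Stt3a, Stt3b and Ddost were below all HFCF libraries, Rpn2 lay between them, and Rpn1 was above all of them. For degradation genes the OP medians were even, at 0.32, 0.28 and 0.26, against -0.002, -0.09 and 0.08 in HFCF livers. Single degradation genes were not all even, with Syvn1 at 175, 68.1 and 114 CPM and Herpud1 at 555, 305 and 253 CPM in OP livers.

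**Figure D4:**
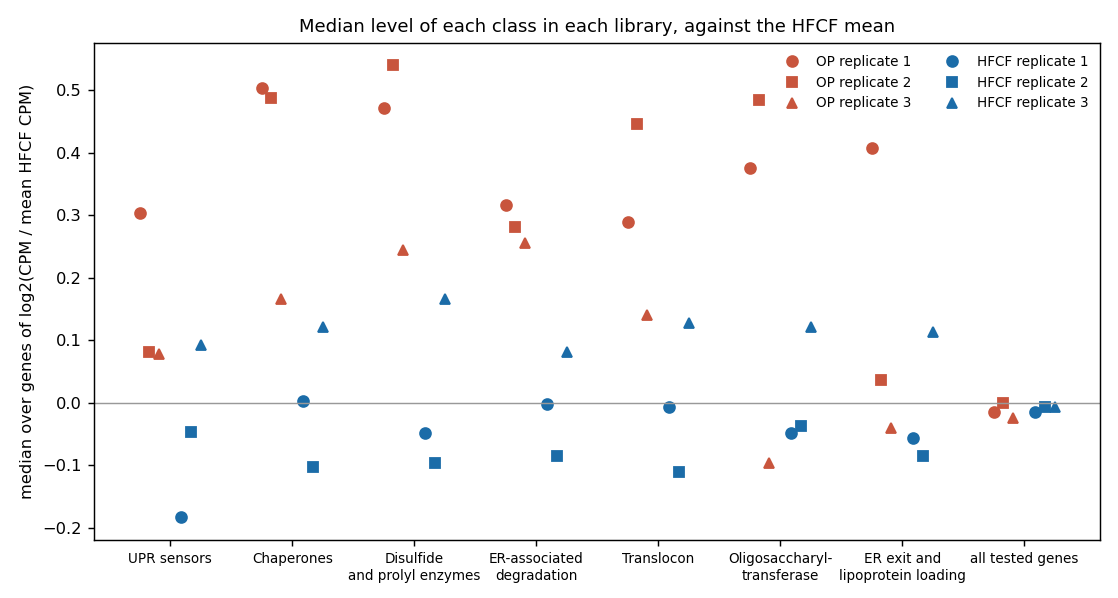
Median over genes of log2(CPM divided by the HFCF mean CPM) for each role and for all tested genes, with 3 OP libraries in red left of 3 HFCF libraries in blue. OP replicate 3 (red triangle) lies near HFCF replicate 3 (blue triangle) for most roles, at -0.10 against 0.12 for the oligosaccharyltransferase, while the 6 libraries nearly coincide for all tested genes.

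Hepatocyte markers and the mitochondrial share varied over the same libraries. Summed hepatocyte markers were 83200, 77500 and 54500 CPM in OP livers, against 36600, 36200 and 58900 CPM in HFCF livers, so OP replicate 3 was again the lowest and HFCF replicate 3 the highest of its group. Alb was the largest part of each sum, with 50270, 44090 and 28910 CPM in OP livers, against 15870, 16250 and 32980 CPM in HFCF livers. It overlapped between the groups and was not called (edgeR adjusted p = 0.158). Single markers did not all keep the order of the sum. Hnf4a was lowest in OP replicate 2 within its group, and Cps1 was lowest in HFCF replicate 3 within its group. Of the 8 markers, Ttr rose and Cps1 fell. Whether hepatocyte content has a part in the gene results was not tested. The mitochondrial share averaged 9.31% ± 4.44 in OP livers and 18.3% ± 4.01 in HFCF livers (SD, n = 3 each).

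With the mitochondrial share as a covariate in the fit, 0 of the 54 genes were called in either direction, against 1.19% of all tested genes, 110 called higher and 97 lower. At an unadjusted p under 0.05 this fit gave 8 of the 54 genes, against 17.4% of all tested genes, and the fit without the covariate gave 23, against 25.2%. The median log2 fold change of the 54 genes was 0.06, with 30 above 0. Because the share differs between the groups, this fit cannot cleanly separate share from group. The estimates did not all shift in the same direction, and whether genes differ in this was not tested. Syvn1 gave 1.51, Xbp1 0.83, Sec61b 0.81 and Hspa5 0.80, each larger than without the covariate, and Derl3 gave -1.29. The shift of Hspa5, from 0.74, was smaller than its SE of 0.16 without the covariate. Herpud1 gave 0.28, Dnajb9 0.41 and Sar1b 0.62, each smaller than without the covariate. Among the genes that turned sign were Dnajc3 at -0.54, Selenos at -0.57 and Os9 at -0.27, none of which had passed.

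**Figure D5:**
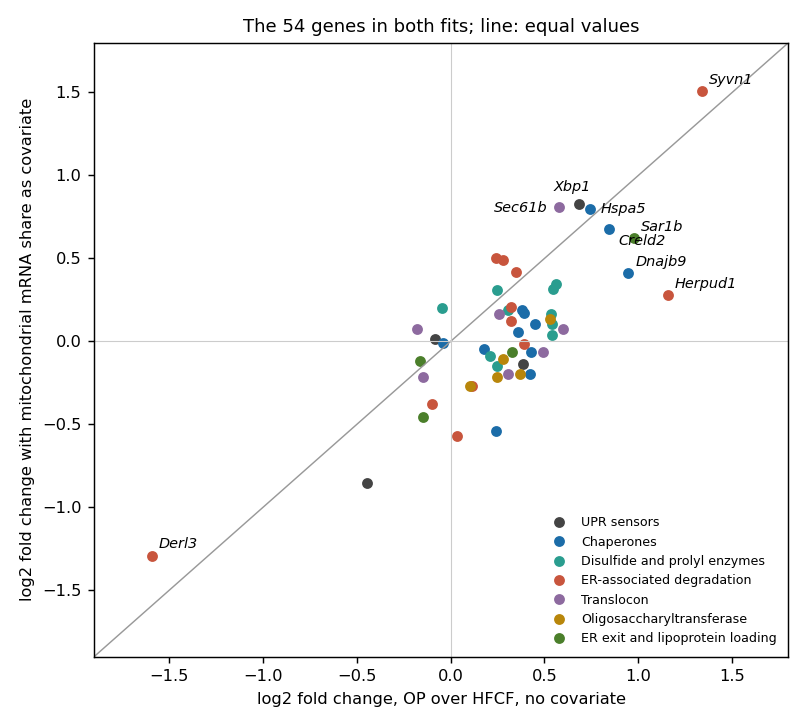
Log2 fold change, OP over HFCF, of the 54 genes in the fit without (x axis) and with (y axis) mitochondrial mRNA share as covariate. The diagonal line marks equal values. Syvn1, Xbp1, Sec61b and Hspa5 lie on or above it on the right, Herpud1, Dnajb9 and Sar1b fall below it, and most other genes gather near 0 on the y axis.

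Markers of other cell types were summed over their whole lists. Markers of B cells and plasma cells, which are rich in ER, summed to 131, 388 and 116 CPM in OP livers, against 190, 152 and 205 CPM in HFCF livers. Only OP replicate 2 stood apart, with Ighm at 117 CPM and Jchain at 18.4 CPM. None of the 11 tested markers was called by edgeR, DESeq2 or limma-voom. An unadjusted p under 0.05 by edgeR was found for 5 of the 11, against 25.2% of all tested genes. OP replicate 2 was the highest OP library for 20 of the 54 genes and the lowest for 10. Pancreatic acinar markers summed to 20.2 to 25.3 CPM in OP livers and 8.07 to 12.4 CPM in HFCF livers. Of these 9 markers, 7 were at 0 in all libraries, among them Prss1, Pnlip and Amy2a5. Cela1 was higher, at 1.195 on the log2 scale (edgeR adjusted p = 0.0121). Cela2a, which was scarce, went the other way, at -2.13, and was not called (edgeR adjusted p = 0.22). Red blood cell markers summed to 192 to 414 CPM in OP livers and 941 to 1770 CPM in HFCF livers, and 4 of 5 fell. Kupffer cell and macrophage markers summed to 158 to 284 CPM in OP livers and 278 to 347 CPM in HFCF livers. Adipocyte markers summed to 12.4 to 65.7 CPM in OP livers and 0.0 to 4.84 CPM in HFCF livers. Most of the OP sums came from 1 gene, Cfd, with 12.2, 26.5 and 63.0 CPM in OP livers. It had 0.0, 0.104 and 3.32 CPM in HFCF livers and was not called (edgeR adjusted p = 0.0626). Adipoq, Plin1, Retn, Lep and Adig were scarce and overlapped between the groups. Whether plasma cells, red blood cells, macrophages or adipocytes have a part in the results was not tested.

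Levels per length, as CPM per kilobase of GENCODE M21 exons, ranked the 54 genes by abundance. P4hb was the highest in both groups, at 282 ± 14.6 in OP livers and 228 ± 7.35 in HFCF livers (SD, n = 3 each). In HFCF livers Hsp90b1 followed at 121 ± 10.9, Calr at 107 ± 12, Hspa5 at 71.7 ± 4.36, Herpud1 at 71.4 ± 24.4 and Sar1b at 65.5 ± 9.85, and the last 3 of these did not differ beyond their spread. In OP livers Herpud1 stood at 159 ± 69.1, Calr at 141 ± 14.2, Hsp90b1 at 136 ± 13.6, Sar1b at 129 ± 11.8 and Hspa5 at 120 ± 17.4, with overlapping SD ranges. Syvn1 ranked 20 of 54 in OP livers and 35 of 54 in HFCF livers. Derl3 ranked 53 in OP livers and 46 in HFCF livers. Eif2ak3 was the lowest in both, at 0.983 ± 0.226 in OP livers and 1.34 ± 0.0585 in HFCF livers. The sensors Atf6 and Ern1 were also near the bottom, while Xbp1 ranked 12 in both.

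The neighbouring genes of the pathway were read from 9 lists of 138 genes outside the 54. Of these, 137 were matched and 133 tested, with 8 called higher, 2 called lower, 97 above 0 and a median log2 fold change of 0.23. Among all tested genes 6.73% were called in either direction, 3.26% higher and 3.47% lower, and 51.4% were above 0. With both directions together, the 10 calls among 133 genes lie close to the share over all genes. Taken by direction, the calls were mostly higher, unlike those over all genes.

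The PERK branch showed opposite movements within it. Among 11 genes, Ddit3 rose and Trib3 and Asns fell, and the median was -0.09. Ddit3 encodes CHOP, a stress factor induced by ATF4. It had 20.8, 14.3 and 26.7 CPM in OP livers, against 6.95, 7.21 and 7.58 CPM in HFCF livers, without overlap. Its log2 fold change was 1.51 ± 0.23 (edgeR adjusted p = 0.0113), and it was still called with the mitochondrial covariate, at 1.85 (adjusted p = 0.0454). Trib3, a pseudokinase that is a target of CHOP and ATF4, moved the other way, with 4.71, 6.57 and 3.98 CPM in OP livers, against 14.3, 18.1 and 23.8 CPM in HFCF livers. Its log2 fold change was -1.88 ± 0.26 (edgeR adjusted p = 0.00812), and -2.60 with the covariate (adjusted p = 0.0139).

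Asns, asparagine synthetase, another ATF4 target, had 0.500, 0.362 and 0.125 CPM in OP livers, against 13.9, 2.35 and 1.14 CPM in HFCF livers. HFCF replicate 1 dominated its group, and the log2 fold change was -4.11 ± 0.97 (edgeR adjusted p = 0.0438), held only without HFCF replicate 3 among the libraries left out, with values of -4.60 to -2.39. Atf4 itself was level at -0.09 ± 0.14 (edgeR adjusted p = 0.730). Ddit3 lost its call without OP replicate 1, HFCF replicate 1 or HFCF replicate 2, at 1.28 to 1.72 over the libraries left out. Trib3 lost its call without OP replicate 1 or HFCF replicate 2, at -2.11 to -1.67.

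Among 10 tested regulators and proteases of the response outside the 54, Nfe2l1 and Tmbim6 rose. Nfe2l1, an ER-anchored transcription factor that raises proteasome genes, averaged 93.8 ± 10.5 CPM in OP livers and 45.2 ± 6.83 CPM in HFCF livers (SD, n = 3 each), a log2 fold change of 1.05 (edgeR adjusted p = 0.0120). Tmbim6, or Bax inhibitor 1, an ER membrane protein that restrains IRE1, averaged 981 ± 196 CPM in OP livers and 542 ± 99.1 CPM in HFCF livers (SD, n = 3 each), at 0.86 (edgeR adjusted p = 0.0460). Both lost their calls without OP replicate 1, HFCF replicate 1 or HFCF replicate 2, and Tmbim6 also without OP replicate 2, with values of 0.95 to 1.19 for Nfe2l1 and 0.73 to 1.017 for Tmbim6. With the mitochondrial covariate they gave 0.69 and 0.27 and were not called. Of 6 mRNAs that IRE1 is known to degrade in other cells, Bloc1s1 was the only one called and it was higher, at 0.72 (edgeR adjusted p = 0.0468), while the median was -0.01. Bloc1s1 did not keep its call under the removal of any library, at 0.57 to 0.81.

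The oligosaccharyltransferase had called subunits outside the 54. All 7 further subunits were above 0, with a median of 0.31, and the small subunits Ost4 and Krtcap2 rose. Krtcap2 had 33.4, 31.6 and 36.5 CPM in OP livers, against 21.0, 21.3 and 22.8 CPM in HFCF livers, tight within each group. Its log2 fold change was 0.64 ± 0.13 (edgeR adjusted p = 0.0283). Ost4 averaged 43.1 ± 1.30 CPM in OP livers and 24.4 ± 5.70 CPM in HFCF livers (SD, n = 3 each), at 0.82 (edgeR adjusted p = 0.0333). Both lost their calls without OP replicate 1, HFCF replicate 1 or HFCF replicate 2, with values of 0.58 to 0.69 for Krtcap2 and 0.71 to 1.03 for Ost4, and Ost4 also without OP replicate 2.

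The remaining lists held few calls. Alg5, which makes the glucose donor for the glycan precursor, was called among 13 calnexin cycle and glycan trimming genes, at 0.68 (edgeR adjusted p = 0.0486). Sec62, a translocation factor and receptor for ER turnover, was called among 21 targeting and translocation genes, at 0.60 (edgeR adjusted p = 0.0488). Sec62 kept its call under the removal of no library and Alg5 only without HFCF replicate 3. No gene passed in edgeR among 22 further chaperones and oxidative folding factors, 22 further degradation factors or 21 COPII and cargo receptor genes. At an unadjusted p under 0.05 edgeR gave 5, 6 and 13 genes of these lists, of which 4, 4 and 10 were higher, against 25.2% of all tested genes in either direction. DESeq2 called 5, 1 and 7 of them in either direction, against 16.4% of the genes it tested, and limma-voom called 1 in each, against 7.58%. The smallest p belonged to the thioredoxin-like Tmx2 among the chaperones and folding factors, at 0.58 (edgeR adjusted p = 0.0523), and to the KDEL receptor Kdelr2 among the COPII and cargo receptor genes, at 0.56 (edgeR adjusted p = 0.0512). Of the 10 genes called in the 9 lists, Ddit3 and Trib3 were the only ones still called with the mitochondrial covariate. The medians of these 3 lists were 0.22, 0.22 and 0.40.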

How the data were processed

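The authors deposited raw counts, as whole numbers by gene, for 6 libraries of fresh liver, OP (3) and HFCF (3), grouped by their titles. Per the submitters' processing notes, cutadapt 1.9 and FastQC were used with the mouse build GRCm39. Not given in the sources used here are the aligner, the counter and whether reads were counted by strand. Genes with a count of 4 outnumber those with 3 or 5 in each library, so several counts may stem from 1 read pair, which would overstate depth. Of 55401 identifiers, 55141 had a symbol.

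Genes were kept by filterByExpr, 17394 of 27893 with any count, scaled by TMM and tested OP minus HFCF, two-sided, with edgeR 4.0.16 in R 4.3.3 (glmQLFit, glmQLFTest) and Benjamini-Hochberg adjustment. The test was tried on simulated counts. CPM uses TMM-scaled library sizes. A standard error is the log2 fold change over the square root of F. Replicates within a group differed by a chi-square per degree of freedom of 46.2 to 350, above sampling noise. Alternatives were DESeq2 1.42.0, limma-voom (limma 3.58.1), other scalings, filters and thresholds, robust dispersions, a replicate block, a mitochondrial covariate, mitochondrial genes left out, counts divided by 4, and each library left out. Figures used matplotlib 3.10.9. GENCODE M21 (GRCm38) gave exon lengths and overlaps, and RefSeq GRCm38.p6 the promoter sequences. Since that build differs from the submitters', other coordinates are not given.

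The members, lists and motifs were chosen with earlier results of these data known. Values per library are given for called members, the sensors and the member with the smallest p of each role. In each further list the called genes, or else the gene with the smallest p, are named, some of them with values per library. Exceptions are named as chosen after their values were seen, and 1 gene that this rule selects is not reported here.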

Additional observations from a re-analysis of the deposited data

How the results depend on the processing

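Limits: 3 libraries per group carry the calls, OP and HFCF differ in mitochondrial share, and several counts may stem from 1 read pair. The number of the 54 genes called higher was 4, and 1 gene, Derl3, was called lower. With no low-count filter the number called higher was 1 (298 higher and 400 lower among all genes). It was 7 with a filter of 1 CPM, against 5.37% of all genes called higher. It was also 7 with robust dispersions, against 3.87%, and with counts divided by 4, against 5.27%. With DESeq2 it was 14, against 8.18% of genes called higher, with 1252 higher and 1262 lower among all genes. At an adjusted p under 0.1 it was 14, against 7.6%, with 1322 higher and 1230 lower. At 0.01 it was 0, with 0 lower, and 72 higher and 92 lower among all genes. With the mitochondrial share as a covariate it was 0, with 0 lower, 110 higher and 97 lower among all genes, and a median log2 fold change of 0.063 in place of 0.32. The labels give no pairing of libraries. Deviations of log2 CPM from the group means correlated at 0.02, -0.13 and -0.16 between same-numbered libraries. Between differently numbered libraries they correlated at -0.15 to 0.25. These values do not settle pairing, because deviations within a group of 3 libraries sum to 0. With the replicate number as a block, 0 of the 54 genes were called higher and 0 lower (15 at an unadjusted p under 0.05 by edgeR), 87 and 93 among all genes, with a median of 0.33. Leaving out each library in turn gave 0 to 8 genes called higher, 0 to 1 called lower, a median of 0.26 to 0.44, and 34 to 655 higher and 54 to 655 lower among all genes. Upper quartile scaling gave 3 higher and 1 lower, against 2.87% and 3.86% of all genes. No scaling factors gave 3 and 1, against 2.4% and 3.08%. The limma-voom fit gave 6 and 1, against 3.71% and 3.87%. RLE scaling gave 4 and 1, against 2.92% and 3.53%. Leaving out mitochondrial genes gave 4 and 1, against 3.18% and 3.59%.

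No called gene turned sign. With the mitochondrial covariate these did, and the cause was not tested: Atf6 -0.13, Ern1 0.017, Hsp90b1 -0.047, Hyou1 -0.065, Canx -0.19, Dnajc3 -0.54, Erp29 -0.15, Txndc11 0.20, Ppib -0.089, Edem1 -0.015, Os9 -0.27, Selenos -0.57, Sec61a1 -0.066, Sec61g 0.072, Ssr3 -0.20, Stt3a -0.20, Stt3b -0.27, Rpn2 -0.22, Ddost -0.10 and Sec23b -0.066. Leaving out a library turned Ern1 (-0.174 to 0.077), Sdf2l1 (-0.129 to 0.005), Txndc11 (-0.16 to 0.13), Derl1 (-0.225 to 0.013), Os9 (-0.015 to 0.258), Selenos (-0.13 to 0.20) and Tm6sf2 (-0.392 to 0.013). Over single genes, with all libraries kept, 592 of the values under other settings kept direction and side of the threshold. Of the rest, 21 passed newly, 15 no longer passed and 20 turned sign. With a library left out, 286 values kept both, 6 passed newly, 21 no longer passed and 11 turned sign.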
